A study of Mus musculus with 768 samples.

Results

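Endothelial wells were the 107 wells, of 658 kept wells and 768 in all, that carried the transcripts of brain vessel lining among single cells sorted for a Nestin:GFP reporter. Kept wells had 50000 or more read counts and between 1000 and 6000 detected genes, and mitochondrially encoded genes took no more than 15% of their counts. The members were chosen by measured values: at least 3 of Cldn5, Pecam1, Flt1, Ly6c1 and Itm2a at 50 CPM or more (a CPM is a gene's read count scaled to the same total in every well), and fewer than 3 of the oligodendrocyte genes Mag, Mog, Mobp, Cldn11 and Mal. Because read counts of these same wells set the membership, every comparison of endothelial wells with other wells is given as a description without a test.

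The reporter expresses green fluorescent protein from regulatory sequence of Nes, the gene of an intermediate filament of neural stem cells, and the cells came from the dentate gyrus of male Nestin:GFP mice. All 8 mice were injected from 2 months of age, once a week for 5 weeks, with 3 µl of a 1:1 mixture of an oligonucleotide (150 pmol) and lipofectamine 2000. The 4 miR-132 mice (mice 2, 4, 6 and 8) received a miR-132 mimic, and the 4 Control mice (mice 1, 3, 5 and 7) a negative control oligonucleotide; no uninjected group was used here. The sort dates were 17 April 2018 for mice 1, 2, 3 and 4 and 19 April 2018 for the others, so that either date held 2 mice of each treatment. Each sorted cell became a Smart-seq2 library, a full-length cDNA method without molecular identifiers. Per the labels 94 cells of a mouse were sorted at first, whereas 96 wells of each mouse have a column of counts. The labels give a pair of maps from wells to mice that agree on the mouse of only 96 of the 768 wells; the map in the sample descriptions was used here, and where a direction turned round under the map in the sample titles, the value is given in the same part of the text. The reporter transcript is not a row of the count table, so the sort itself could not be checked on it.

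Endothelial cells line every blood vessel. In the brain they form the blood-brain barrier: tight junction proteins seal the gaps between cells, ATP-driven pumps return lipid-soluble compounds to the blood, solute carriers bring in glucose, amino acids and hormones, and vesicle traffic across the cell is kept low. Along the vessel tree they differ between arteries, capillaries and veins, and Wnt signalling from the surrounding tissue is known to maintain their barrier genes. The neurogenic niche of the dentate gyrus is rich in vessels.

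The mimicked microRNA and the stretches upstream of a pair of the genes that defined the wells were read from RefSeq on GRCm38.p6, because the first is the treatment and the others belong to the 2 genes of the rule that every member carried at 50 CPM. Capitals mark the seed (bases 2 to 8) of mmu-miR-132-3p, which lies at chr11:75173723-75173744 on the plus strand. In the 250 bases before the start of Cldn5 (chr16:18776597-18776846, plus strand) and of Flt1 (chr5:147726012-147726261, minus strand), capitals mark GGAAG, the core that ETS factors such as Erg and Fli1 bind, and its reverse complement.
mmu-miR-132-3p: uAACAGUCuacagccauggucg
Cldn5 upstream: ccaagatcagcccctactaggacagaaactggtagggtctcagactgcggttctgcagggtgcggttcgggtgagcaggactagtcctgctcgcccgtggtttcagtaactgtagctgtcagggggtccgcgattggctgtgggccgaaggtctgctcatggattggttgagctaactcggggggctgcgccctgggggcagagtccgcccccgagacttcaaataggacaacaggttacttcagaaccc
Flt1 upstream: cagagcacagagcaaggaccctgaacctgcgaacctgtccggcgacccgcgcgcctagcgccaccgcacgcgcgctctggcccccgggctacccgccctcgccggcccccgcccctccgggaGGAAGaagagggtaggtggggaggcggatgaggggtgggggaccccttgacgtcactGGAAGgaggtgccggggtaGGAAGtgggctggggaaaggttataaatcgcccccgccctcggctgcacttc
The Flt1 stretch held GGAAG 3 times and the Cldn5 stretch 0 times, with both strands searched and overlapping matches counted separately. The 15 genes with the largest ratio of endothelial to other wells, as ranked below, had 10 matched stretches. GGAAG stood in 7 of these 10 (70%) and in 65.3% of 15920 gene starts of the same length. ACAAT, the core bound by SOX factors such as Sox17 and Sox18, stood in 2 of those 10 (20%) and in 22.3% of all. These matches describe letters in a window and not bound sites.

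The 5 chosen transcripts left almost no intermediate wells. Of the kept wells, 88 had all 5 markers at 50 CPM, 19 had 4, 0 had 3, 1 had 2, 35 had 1 and 515 had none. The well with 2 markers, just outside the rule, was a mural well of miR-132 mouse 6 with 733 CPM of Cldn5 and 723 CPM of Ly6c1. Cldn5, the main claudin of brain endothelial tight junctions (GENCODE M21, chr16:18776847-18778262, plus strand), was at or above 1257 CPM in every member, with a median of 11844 and a maximum of 28329 CPM. The same gene reached at most 733 CPM in any other kept well. Flt1, a receptor for VEGF (chr5:147561604-147726011, minus strand), was also at 50 CPM or more in every member, while Pecam1, an adhesion molecule of endothelial junctions, fell short in 15 members, Itm2a in 3 and Ly6c1 in 1. The markers of the label that the rule did not use were present as well: Slco1a4, a transporter of organic anions, in 102 of 107 wells at 3203 ± 713 CPM, and Egfl7, a secreted endothelial protein, in 103 wells at 1369 ± 332 CPM (here and below, mean ± SD over 8 mice of each mouse's mean over its wells). Outside the endothelial wells they reached 50 CPM in 4 and 2 of 551 kept wells.

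**Figure D1:**
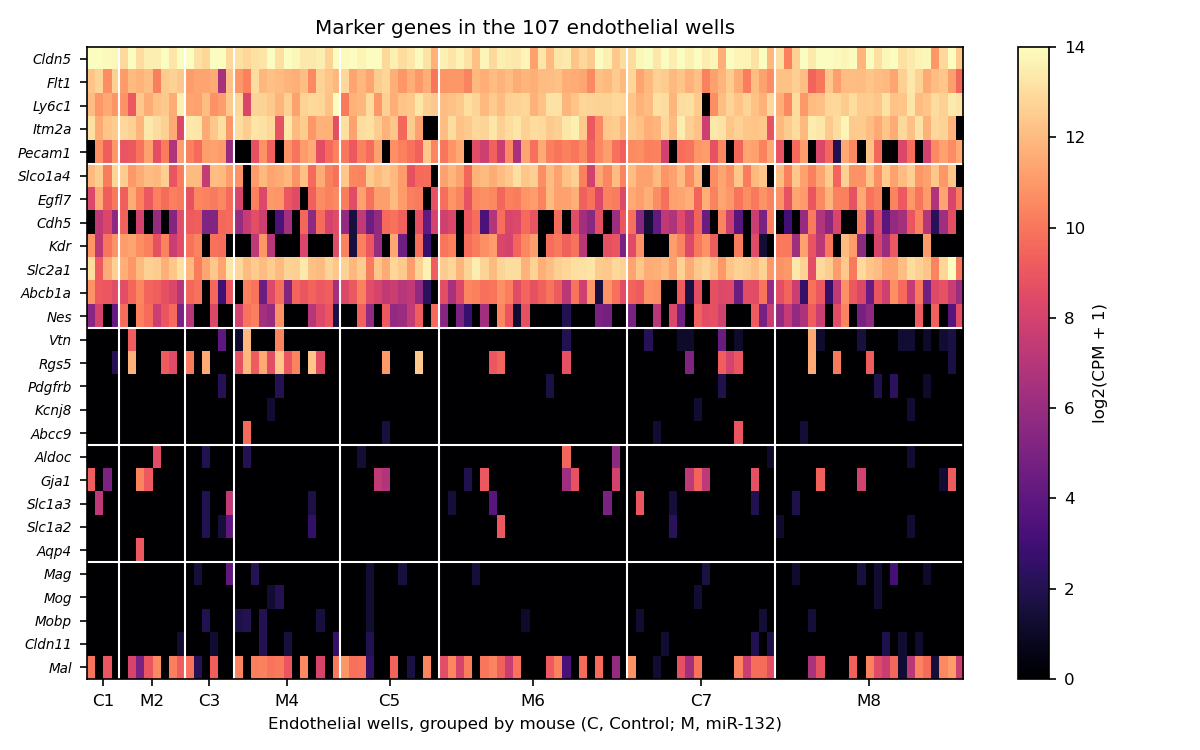
Expression in the 107 endothelial wells, 1 column per well grouped by mouse (C, Control; M, miR-132), as log2(CPM + 1) in colour; white lines part endothelial genes and Nes (top), pericyte, astrocyte and oligodendrocyte markers. Cldn5 and Flt1 were at 50 CPM or more in every well, Rgs5 in 26 wells with 10 of them in mouse 4, and Mal in 59.

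Each well is a library of its own. Endothelial wells held a median of 574174 counts (64180 to 880580) and 2118 genes (1016 to 3342), and a median of 1.81% of counts lay on mitochondrially encoded genes (0.725 to 8.28%). Summed per mouse, they held 1955858 to 14629991 counts. Thinned to 50000 counts, the median was 1705 genes, against 1600 in 82 mural wells, 2199 in 101 astroglial wells and 2394 in 296 oligodendrocyte wells, which were chosen in the same manner from at least 3 of 5 markers. All 16 wells that were set aside for having more than 6000 genes held at least 3 endothelial markers, as did 9 of 59 wells set aside for other reasons and 0 of 35 wells under 50000 counts.

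Transcripts of other cell types were low apart from those of red blood cells in a pair of wells, Rgs5 and Mal. At least 3 of 5 markers were at 50 CPM for red blood cells in 2 members (1 each in mice 6 and 7, with up to 119072 CPM of the haemoglobin gene Hbb-bs), for pericytes in 1 member and for astrocytes in 0. Summed over their lists, fibroblast markers stayed between 0 and 2.60 CPM per mouse, microglial markers between 0 and 26.7, ependymal markers between 0 and 5.02 and oligodendrocyte precursor markers between 0 and 49.2. Smooth muscle markers ranged from 0 to 469 CPM, neuronal markers from 1.52 to 356, astrocyte markers from 25.9 to 455 and pericyte markers from 2.37 to 2097. In mouse 5, where the neuronal sum was highest, it was almost entirely Stmn2, which is also on the arterial list used below. The oligodendrocyte list summed to between 273 and 729 CPM, and this sum was almost entirely Mal, a raft protein of myelin and of polarised membranes. Mal was at 50 CPM or more in 59 of 107 members, at 458 ± 136 CPM, while Mag, Mog, Mobp, Cldn11 and Ermn reached that level in 0 members and Mbp in 1. In mural and astroglial wells Mal was at 0.525 and 0.637 CPM, and in oligodendrocyte wells, where it is a major myelin transcript, at 6110 CPM.

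Rgs5, a regulator of G-protein signalling used as a pericyte marker, made up most of the pericyte sum in the mouse where that sum was highest, mouse 4, with Vtn at a further 393 CPM. It reached 50 CPM in 26 members, at 262 to 5525 CPM with a median of 667, and its mean in mice 1 to 8 was 0.857, 534, 664, 1576, 633, 71.2, 78.6 and 201 CPM. The highest mouse was miR-132 mouse 4, where 10 of 13 wells carried it, and in mural wells the mouse means lay between 5316 and 8483 CPM. In the 26 wells Vtn was at 50 CPM in 4, Abcc9 in 2, Higd1b in 1, Cspg4 in 1, and Pdgfrb, Kcnj8 and Notch3 in 0. Cldn5 averaged 13769 CPM in these wells and 12319 CPM in the other endothelial wells. Whether Rgs5 came from the endothelial cell or from pericyte RNA in the well was not tested.

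Endothelial genes that the rule did not use were widespread in the members. Of 22 further endothelial genes, 21 were at 50 CPM in at least 50% of the wells, and the exception was Erg, an ETS factor, in 37 wells (34.6%). Pltp, which transfers phospholipids between lipoproteins, averaged 8880 ± 1726 CPM and was present in all 107 wells and in 66 others. Ly6a, a surface protein of brain endothelium and of blood stem cells, was in all 107 wells at 3644 ± 856 CPM and in 2 others. Several were found in no other kept well at 50 CPM: the transcription factors Sox18 (88 wells, 1020 ± 343 CPM) and Sox17 (65 wells, 522 ± 246 CPM), the protease inhibitor Ctla2a (71 wells), the adhesion receptor Adgrl4 (93 wells, 1488 ± 803 CPM) and the efflux pump Abcb1a (90 wells, 559 ± 177 CPM). The receptors Tek (90 wells) and Tie1 (85 wells) of the angiopoietin system and the phosphatase Ptprb (101 wells, 1298 ± 301 CPM) were in at most 4 others. The 15 genes with the largest ratio of endothelial to other wells were AU021092, Ctla2a, Slc19a3, Sox18, Degs2, Sgpp2, Adgrl4, Pglyrp1, Cldn5, Sox17, Abcb1a, Icam2, Hmcn1, Ptprb and Ly6c2. Ly6c2 is uncertain, since it stood at 7.12 CPM with 50 CPM in 1 well and is a near copy of the rule gene Ly6c1.

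Transcripts for barrier transport were strong. Per kilobase of exon, a scale on which genes can be compared, Cldn5 was the highest of the genes measured here at 9665 CPM per kb, and Slc2a1, the glucose transporter of the barrier, was at 1461 CPM per kb. As a level, Slc2a1 averaged 5124 ± 828 CPM and was in every endothelial well, though also in 282 other wells. Of 20 solute carriers listed, 15 were at 50 CPM in at least 50% of the wells. Slco1c1, which carries thyroid hormone, stood at 2628 ± 475 CPM in 100 wells, Slc3a2, the heavy chain of amino acid exchangers, at 1909 ± 223 CPM, and Slc39a10, a zinc importer, at 1075 ± 126 CPM in 97 wells. Slc22a8, an organic anion exporter, averaged 1474 ± 492 CPM and was nearly as high in mural wells at 1140 CPM. Slc7a5, the large neutral amino acid transporter that pairs with Slc3a2, was lower at 252 ± 104 CPM in 68 wells. Slc38a5, a glutamine carrier, and Slc19a3, a thiamine carrier, were in 41 and 43 wells and in 0 other wells.

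Among 7 efflux pumps, 3 were in at least 50% of the wells: Abcg2 at 947 ± 313 CPM in 91 wells, Abcb1a as above and Abcc4 at 588 ± 226 CPM in 72 wells. Of 15 junction genes 9 passed that share, including the angulin gene Lsr (575 ± 140 CPM, 81 wells and 1 other well). Ocln, the gene of occludin, was in 51 wells at 348 ± 103 CPM, and Cgn, Marveld2 and Cldn12 in at most 4. Mfsd2a, a lipid transporter known to keep vesicle traffic low, averaged 1401 ± 567 CPM in 72 wells. It was also at 50 CPM in 48 other kept wells, and in 32.7% of astroglial wells. The transferrin receptor Tfrc was in 69 wells at 761 ± 390 CPM and the insulin receptor Insr in 66 wells at 451 ± 214 CPM, while Lrp1, an uptake receptor often placed at the barrier, was listed at 0.100 CPM with 0 wells at 50 CPM against 493 CPM in mural wells. Caveolar genes were moderate, with Cav1 at 616 ± 141 CPM in 69 wells.

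**Figure D2:**
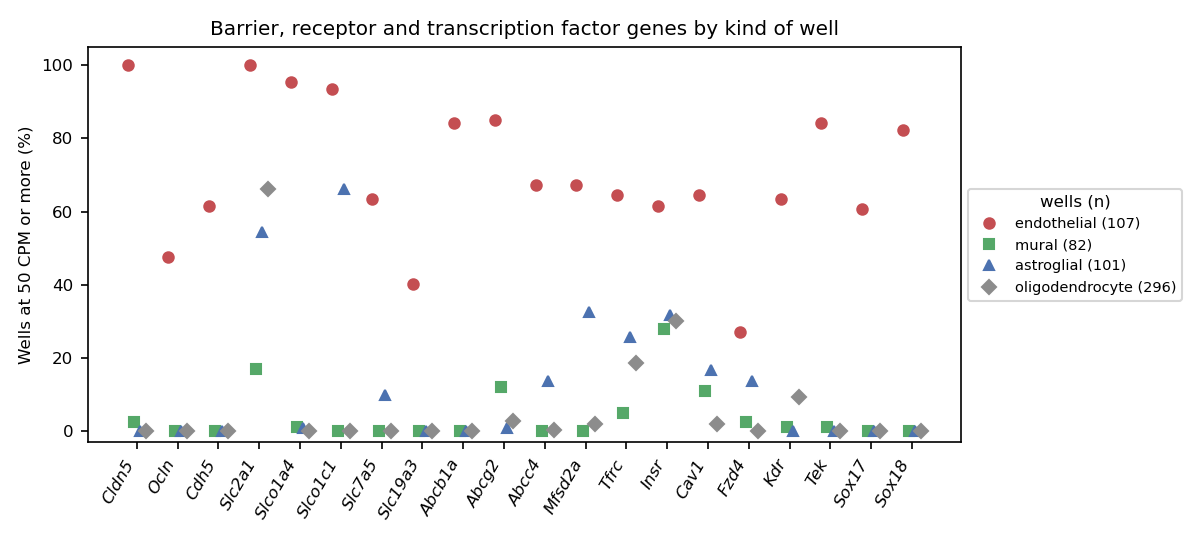
Percent of wells at 50 CPM or more for 20 barrier, receptor and transcription factor genes, with 1 symbol for each kind of well (107 endothelial, 82 mural, 101 astroglial and 296 oligodendrocyte wells). Slc2a1 was also frequent in astroglial and oligodendrocyte wells, whereas Sox17, Sox18 and Abcb1a reached that level in 0 wells outside the endothelial ones.

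Signalling and matrix genes were more uneven between wells. Of 18 Wnt pathway genes 4 were in at least 50% of the wells: these included the pathway's feedback inhibitor Nkd1 (57 wells) and the nuclear partner of beta-catenin Lef1 (60 wells), whereas the Norrin receptor Fzd4 was in 29 wells at 122 ± 79.5 CPM and its partner Tspan12 in 19. Of 18 VEGF and related receptor genes 11 passed that share. S1pr1, a receptor for sphingosine 1-phosphate, was in 103 wells at 1334 CPM, Kdr, the main VEGF receptor, in 68 wells at 757 ± 342 CPM, and Flt4 in 53 wells. Id1 and Id3, targets of BMP signalling, averaged 1540 ± 716 and 2168 ± 624 CPM in 97 and 100 wells. Of the Notch genes the receptor Notch1 was in 71 wells and Notch4 in 53, and the ligand Dll4 in 27; Heyl was at 50 CPM in 0 wells but averaged 1180 CPM in mural wells.

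Ligands that act on mural cells were in fewer wells. None of 12 listed was in at least 50% of the wells, the platelet-derived growth factor Pdgfb being in 34 and the endothelin Edn1 in 18. Basement membrane genes gave Sparc in 105 wells, Fn1 in 87 and Vwa1, a matrix protein, in 87 at 1473 CPM against 0.252 CPM in mural wells. Of genes for leukocyte adhesion, Icam2 was in 60 wells and Vcam1 in 4, and Sele, Selp and Ackr1 were each at 0. Nos3, the nitric oxide synthase of endothelium, was in 77 wells. Mki67, Top2a, Cdk1 and Ccnb1 of the cell cycle were at 50 CPM in 0 wells, while Ccnd3, a cyclin, was in 56 and Pcna, the replication clamp, in 20. The lymphatic genes Lyve1, Prox1 and Pdpn were in 0 wells and Flt4, which is also on that list, in 53, and Plvap and Esm1 of fenestrated vessels and tip cells were at 0.

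Nes itself (chr3:87971078-87980451, plus strand), whose regulatory sequence drives the reporter, was measured at low levels and not in every member. Its mean in mice 1 to 8 was 80.01, 562, 72.1, 409, 247, 112, 166 and 202 CPM, and the Control and miR-132 mice overlapped. Nes was at 50 CPM or more in 49 of 107 endothelial wells (45.8%), with a median of 390 CPM in those and a maximum of 1773, and it had a count in 66. Mural wells averaged 370 ± 112 CPM with 91.5% of wells at 50 CPM, against 231 ± 173 CPM in endothelial, 27.1 ± 11.6 in astroglial and 18.9 ± 3.42 in oligodendrocyte wells. The stem cell genes Hopx, Sox2, Fabp7 and Lpar1 reached 50 CPM in 0 endothelial wells and Gfap in 2, while Vim and Prom1, which endothelium also expresses, were in 76 and 75. Across the 107 wells the gene most correlated with Nes was Faim (Pearson r = 0.39 on log2(CPM + 1), over 6246 genes), and the next 7 lay between 0.285 and 0.309. Wells of a mouse are not independent, and the source of these weak values was not tested.

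A minority of the wells carried arterial genes. At least 3 of 14 arterial genes were at 50 CPM in 23 wells, of which 5 had exactly 3 and 12 further wells had 2. Since these wells were chosen on the arterial genes, the levels of those genes are a description of the choice: Mgp averaged 1134 CPM in the 23 wells and 0.0367 in the other 84, Gkn3 757 against 6.24, Bmx 185 against 0.649, and Gja4 and Vegfc were at 50 CPM in 6 wells each and in 0 of 84. Genes outside that list differed between the same wells, given here without a test. Alpl, an alkaline phosphatase, averaged 1837 CPM with 22 of 23 wells at 50 CPM, against 262 CPM and 21 of 84. Cd9 averaged 369 against 51.0 CPM and Sox17 871 against 488.

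Capillary and transport genes were at lower levels in these 23 wells, again as a description. Car4, a carbonic anhydrase of brain capillaries, averaged 372 CPM in the 23 wells and 3576 CPM in the 84, and the transferrin receptor Tfrc 237 against 823. Car4 is not particular to endothelial wells: it was at 50 CPM in 75.6% of mural wells (1887 CPM) and 76.6% of endothelial wells. Slc38a5 averaged 92.7 against 666 CPM, Slc16a1, the monocarboxylate carrier, 376 against 1267, and Slc22a8 479 against 1565. Kdr was at 50 CPM in 8 of 23 and in 60 of 84 wells. Mfsd2a averaged 862 against 1610 CPM, and Cxcl12, Spock2 and Slco1c1 differed less: 5946 against 7183, 1547 against 2123 and 2025 against 2779. The median number of capillary genes at 50 CPM was 5 (0 to 9) in the 23 wells and 8 (3 to 10) in the 84, while the wells were alike in depth, with medians of 531013 and 586716 counts. At least 3 capillary genes were present in 103 of all 107 wells, including 19 of the 23.

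No venous group could be named. At least 3 venous genes were at 50 CPM in 13 wells, with 9 at exactly 3, and they rested on Slc38a5 (1263 CPM, 10 wells), Vwf (422 CPM, 8 wells), Tmem252 (315 CPM, 9 wells) and Ephb4 (240 CPM, 6 wells). Nr2f2, the transcription factor that specifies veins, averaged 0.260 CPM in them, and Ackr1, Lrg1 and Lcn2 were at 0. Only 1 well met both the arterial and the venous count. Alpl was most correlated over the wells with Glns-ps1 (r = 0.54), Bmx (0.53), Gkn3 (0.51) and Ly6a (0.48).

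**Figure D3:**
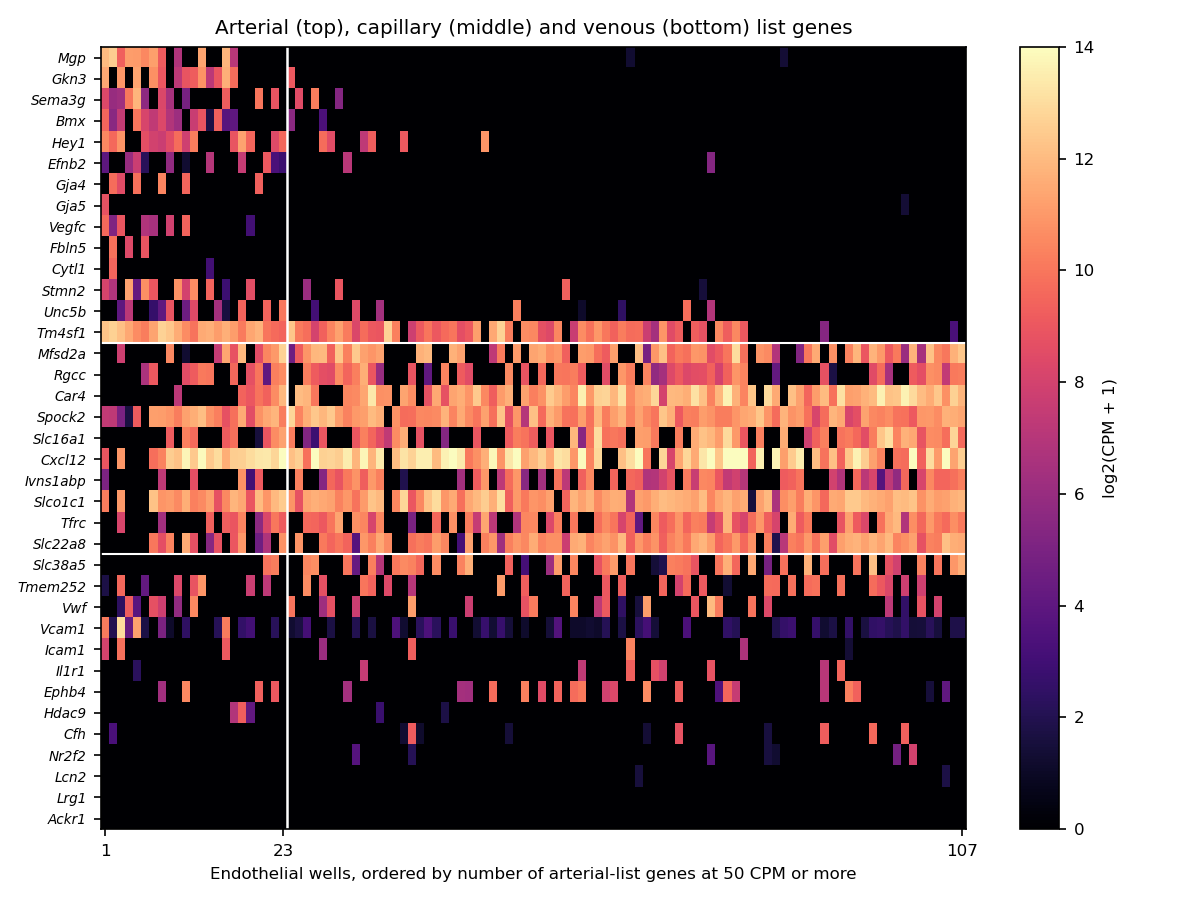
Arterial, capillary and venous list genes (rows) in the 107 endothelial wells (columns), as log2(CPM + 1) in colour, with wells ordered by their number of arterial genes. The vertical line follows the 23 wells with at least 3 arterial genes; Mgp and Bmx were at 50 CPM in 12 and 11 of them and in 0 of the other 84.

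Spread between wells was ranked only among genes at 50 CPM in an intermediate share of the endothelial wells. Those that varied most included immediate early genes, which are known to be switched on within minutes of a stimulus, and vessel and transport genes. The 15 of largest spread were Fos, Dusp1, Cyr61, Junb, Apold1, Slc16a1, Alpl, Egr1, Car4, Tinagl1, Mfsd2a, Slc38a5, Jun, Tspo and Adamts1, and 5 of them are on the immediate early list. The 15 genes reached 50 CPM in 31.8% (Egr1) to 76.6% (Car4) of the wells. The SD of log2(CPM + 1) was 5.70 for Fos, the largest of the 15. Fos was at 50 CPM in 45 wells, with a median of 0 and a maximum of 18326 CPM over all. In those 45 wells Nr4a1 was at 50 CPM in 57.8%, against 1.61% of the other 62, Egr1 in 62.2% against 9.68%, Junb in 82.2% against 25.8% and Klf2, a factor driven by blood flow, in 82.2% against 38.7%. Ier3 was in 55.6% against 51.6%. Over the wells Fos was most correlated with Nr4a1 (r = 0.76), Junb (0.68) and Fosb (0.65). The mean of Fos in mice 1 to 8 was 725, 8209, 2959, 4495, 1425, 1981, 115 and 1306 CPM; mouse 2 was the highest and mouse 7 the lowest.

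**Figure D4:**
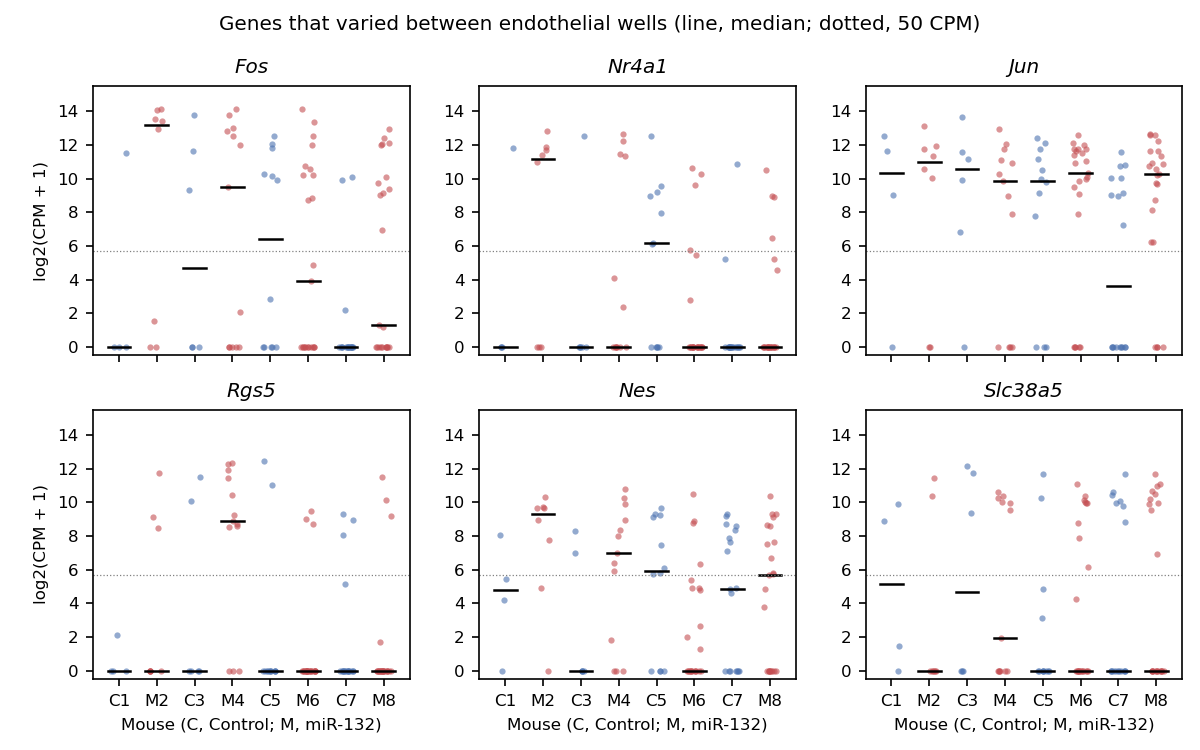
Levels of 6 genes in each endothelial well, as log2(CPM + 1), by mouse (C, Control; M, miR-132), with a line at each mouse's median and a dotted line at 50 CPM. Many wells were at 0 for Fos, Nr4a1, Rgs5 and Slc38a5 while others lay far above 50 CPM, and 5 of 8 wells of mouse 2 carried Fos.

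The endothelial share of kept wells ranged widely between mice, and its difference between treatments did not pass the test. Mice 1 to 8 gave 4, 8, 6, 13, 12, 23, 18 and 23 endothelial wells, or 4.60, 8.89, 8.33, 17.8, 14.5, 27.4, 22.5 and 25.8% of kept wells. Exact binomial 95% intervals, which cover counting error only, ran from 1.27 to 11.4% in mouse 1, the lowest, and from 18.2 to 38.2% in mouse 6, the highest. In a sort, fewer cells of a type and fewer such cells passing the gate cannot be told apart. The share was 12.5 ± 7.82% in Control and 19.98 ± 8.50% in miR-132 mice (n = 4 each), a difference of 7.51 points with p = 0.257 in a two-sided exact permutation test over 70 splits, whose smallest p is 0.0286. The miR-132 mouse was higher than the Control mouse in 4 of 4 pairs of the same sort date and well-name prefix (mice 1 and 2, 3 and 4, 5 and 6, and 7 and 8). Permuted within these pairs, an alternative chosen after seeing the data, the exact p was 0.125, the smallest that test allows. The mimic mice averaged 6.88 points higher within the first date and 8.13 points higher within the second. Permuted within dates, an alternative chosen after seeing the data, the exact p was 0.0556, the smallest that test allows. The difference between dates was 12.6 points (9.91 ± 5.60 against 22.5 ± 5.76%, exact permutation p = 0.0571). The treatment difference turned to -1.52 points with wells assigned by sample titles.

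No gene passed the test for treatment within endothelial wells. Counts were summed over the endothelial wells of each mouse with at least 5 of them, which leaves out Control mouse 1 with 4 wells, so that 3 Control mice (36 wells) were compared with 4 miR-132 mice (67 wells). At an adjusted p under 0.05 (edgeR quasi-likelihood test, Benjamini-Hochberg), 0 of 5847 genes (0%) were called, and the lowest adjusted p was 0.999. At an unadjusted p under 0.05 there were 91 genes higher (1.56%) and 31 lower (0.53%) in miR-132 mice. Together these were under the share of 0.05 that such a threshold gives with no difference. DESeq2 called 33 genes (0.564%) at an adjusted p under 0.05. Of all genes 60.7% had a positive log2 fold change, with a median of 0.30. With wells assigned by sample titles that median turned to -0.003. It was 0.039 with Control mouse 3 left out, 0.077 without sort date in the fit, and up to 0.75 in other settings. Every miR-132 mouse was above every Control mouse for 212 genes (3.63%) and below for 146 (2.5%). Of the 15 genes of smallest p, 13 were at 50 CPM in at most 20 of the 107 wells.

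Sox17, a transcription factor of arterial endothelium (chr1:4490931-4497354, minus strand), was among the 15 genes of smallest p. Its summed-count level was 830, 727, 759 and 801 CPM in miR-132 mice 2, 4, 6 and 8, and 335, 286 and 457 CPM in Control mice 3, 5 and 7. The groups did not overlap, which held in this direction for 3.63% of all tested genes. The log2 fold change was 1.16 ± 0.31 (SE) with an edgeR unadjusted p of 0.00608 and an adjusted p of 0.999. Control mouse 1, outside the test, averaged 165 CPM over its 4 wells. In mice 1 to 8 Sox17 was at 50 CPM in 50, 50, 33.3, 53.8, 41.7, 73.9, 55.6 and 78.3% of wells. These shares overlapped between the treatments. With wells assigned by sample titles the log2 fold change of Sox17 turned to -1.03.

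Of the other genes of small p, Lpcat3, an enzyme that remodels membrane phospholipids, was lower in the miR-132 mice. It stood at 62.2, 149, 123 and 135 CPM in them and at 438, 424 and 352 CPM in the tested Control mice, with a log2 fold change of -1.74 ± 0.47 and an adjusted p of 0.999 by edgeR; the DESeq2 adjusted p was 0.0408. Control mouse 1, at a mean of 115 CPM over its wells, lay within the range of the miR-132 mice. Cry2, a repressor of the circadian clock, was at 102, 294, 118 and 55.5 CPM in the miR-132 mice and at 0, 0.322 and 0 CPM in the Controls, and it was at 50 CPM in 11 of 67 and 0 of 40 wells. Its adjusted p was 0.999 by edgeR, 0.036 by edgeR without the filter on low counts and 3.94e-08 by DESeq2. Spock2, a proteoglycan of brain endothelium, was at 2085, 2647, 2246 and 2910 CPM against 1645, 1469 and 1666 CPM, a log2 fold change of 0.68 ± 0.22, with 1115 CPM in Control mouse 1. Vwa1 and Insr also separated the tested groups (log2 fold changes 0.81 ± 0.26 and 1.03 ± 0.34), as did 3.63% of all tested genes in this direction. Control mouse 1, however, reached 1861 and 837 CPM of these genes, inside and above the miR-132 range. With wells assigned by sample titles the log2 fold changes turned to -1.36 for Cry2, -0.29 for Spock2, -0.31 for Vwa1 and -0.13 for Insr, and that of Lpcat3 was -0.47.

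**Figure D5:**
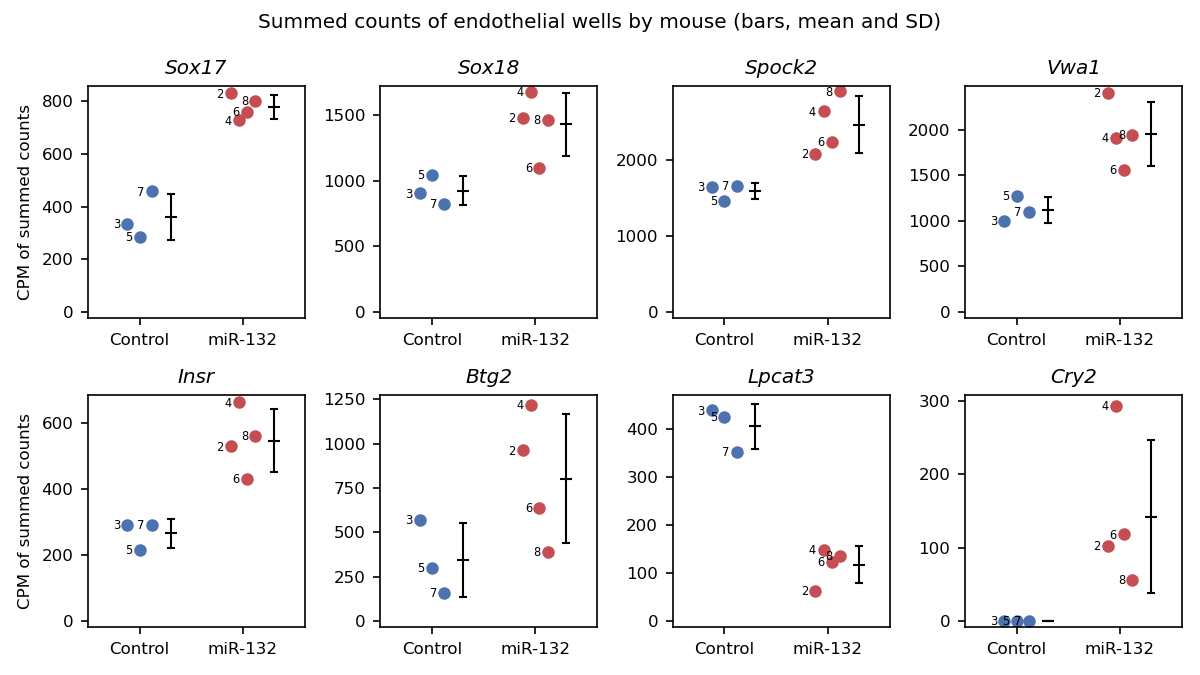
CPM of summed counts of 8 genes named for the treatment comparison, with 1 point per mouse (numbered) and a bar at the mean and SD of 3 Control and 4 miR-132 mice. The Sox17 points lie between 727 and 830 CPM in miR-132 mice and between 286 and 457 CPM in Control mice, and the Btg2 points overlap.

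No member of any gene list was called by the edgeR test, so lists are described by counts and medians. DESeq2 called 1 list member, Smad5, and edgeR without the filter on low counts called 3, Fos (log2 fold change 1.14, adjusted p 0.00245), Cxcl12 and Tap1, named after their values were seen. Of 20 tested MHC and interferon genes, 19 were positive with a median log2 fold change of 0.63, against 0.30 over all genes; B2m, which is part of MHC class I, had 0.67 ± 0.29. The arterial list had 8 of 9 positive with a median of 0.60, the capillary list 6 of 10 with 0.18 and the venous list 2 of 6 with -0.24. Junction genes had 4 of 12 positive (median -0.08) and caveolar genes 0 of 5 (median -0.23), and solute carriers 10 of 18 (median 0.05). Of the published miR-132 targets, 12 were tested and 9 were positive with a median of 0.91. A microRNA is known to lower its target transcripts, and the source of the direction seen here was not tested. Of the 22 listed targets, 0 were at 50 CPM in at least 50% of the wells, and 12 were in under 10%. Btg2 alone had an unadjusted p under 0.05, in the direction of higher, at 1.12 ± 0.36 with overlapping groups. Foxo3 stood at 2.65, with a mean of 0 CPM in Control mice 3 and 5, and Rasa1 at -0.51. Control mouse 1, outside the test, averaged 197 CPM of Foxo3 over its wells, above every miR-132 mouse. Its Btg2 mean of 925 CPM was above miR-132 mice 2, 6 and 8, and its Rasa1 mean was 0 CPM. Its B2m mean of 1426 CPM was below every miR-132 mouse.

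The direction of all 8 of these lists turned with the well map. With wells assigned by sample titles the MHC and interferon list had 6 of 20 positive (median -0.14), the arterial list 2 of 9 (median -0.49), the targets 4 of 12 (median -0.04), the capillary list 4 of 10 (median -0.18), the junction list 9 of 12 (median 0.09), the caveolar list 4 of 5 (median 0.25), the venous list 4 of 6 (median 0.37) and the solute carriers 9 of 18 (median -0.0016). Among the genes named from these lists, B2m turned to -0.04, Btg2 to -0.01, Foxo3 to -0.46 and Rasa1 to 1.23. Fos, with the filter on low counts kept, turned to -0.03. In the 18 other settings the MHC and interferon median lay between 0.26 and 1.10 and the target median between 0.31 and 1.16, while the arterial median lay between -0.34 and 2.97. The 18 settings include markers at 20 CPM, at 100 CPM and at least 4 of 5 markers. Their fits were the same as the main fit, so they could not change these ranges.

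No per-mouse measure of the endothelial wells passed the test. Over 3 Control and 4 miR-132 mice, Nes averaged 162 ± 87.4 and 321 ± 203 CPM (exact permutation p = 0.314), the share of wells with 3 arterial genes 19.4 ± 4.81 and 22.8 ± 7.78% (exact permutation p = 0.486), and the median number of genes 2033 ± 51.7 and 2100 ± 129 (exact permutation p = 0.400). The lowest of 7 exact permutation p-values was 0.114, for the mitochondrial share at 2.13 ± 0.337 against 1.70 ± 0.248%, and its adjusted value was 0.56.

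Between sort dates, again no gene was called by edgeR: 0 of 5847 (0%) at an adjusted p under 0.05, with a lowest adjusted p of 0.915. DESeq2 called 101 (1.73%). At an unadjusted p under 0.05, 157 genes (2.69%) were higher and 54 (0.924%) lower on 19 April. Together these were under the share of 0.05 that such a threshold gives with no difference. Of the fold changes 63.2% were positive, against 54.9% with Control mouse 3 left out and 50.5% with wells assigned by sample titles. Every 19 April mouse was above every 17 April mouse for 375 genes (6.41%) and below for 133 (2.27%). The 17 April mice contributed 27 tested wells, and the 19 April mice 76.

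Most immediate early genes had lower levels on 19 April, although none was called by the edgeR test. Without the filter on low counts, edgeR gave adjusted p-values of 6.24e-15 for Fos, 2.35e-08 for Dusp1 and for Nr4a1, and 2.80e-05 for Egr1. DESeq2 gave 5.41e-05 for Nr4a1, 0.00834 for Dusp1, 0.0242 for Egr1, 0.0264 for Atf3 and 0.533 for Fos. Of 15 tested, 14 had a negative log2 fold change, with a median of -1.17 against 0.38 over all genes, and 9 had an unadjusted p under 0.05 in that direction, against 0.924% of all genes. The list median stayed between -1.60 and -0.91 in 17 other settings, and was -0.25 with wells assigned by sample titles. The 17 settings include markers at 20 CPM, at 100 CPM and at least 4 of 5 markers, whose fits were the same as the main fit. With wells assigned by sample titles the edgeR log2 fold change of Atf3 turned to 0.04. Nr4a1, a nuclear receptor of this class (chr15:101254269-101274795, plus strand), was at 2548, 1502 and 1365 CPM in mice 2, 3 and 4 and at 619, 169, 146 and 147 CPM in mice 5 to 8. The groups did not overlap, which held in this direction for 2.27% of all tested genes. The log2 fold change of Nr4a1 was -3.04 ± 0.62 with an edgeR adjusted p of 0.915. Dusp1, a phosphatase that ends MAP kinase signals, was at 5166, 4313 and 2663 CPM against 1495, 1601, 430 and 1209 CPM, a log2 fold change of -1.77 ± 0.44. Cyr61, a matrix protein induced by the same stimuli, was at 4068, 2921 and 1731 CPM against 531, 960, 383 and 544 CPM, and its log2 fold change turned to 0.18 with wells assigned by sample titles. Fos was at 8961, 3774 and 4089 CPM against 1497, 2227, 111 and 1516 CPM. Control mouse 1, a 17 April mouse outside the test, averaged 725 CPM of Fos over its 4 wells, less than mice 5, 6 and 8, and 391 CPM of Egr1, less than mice 5, 6 and 7. Its means of Nr4a1, Dusp1 and Cyr61 were 892, 2051 and 1637 CPM, each above every 19 April mouse.

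Other genes of small p had higher levels on 19 April. Psmf1, a proteasome inhibitor, was at 0 CPM in the 3 mice of 17 April and at 98.4, 90.2, 132 and 146 CPM in those of 19 April, in 15 of 76 wells. Dbp, a clock output factor, was at 0.230, 0 and 0.334 CPM against 20.6, 62.7, 41.0 and 176 CPM. Control mouse 1 averaged 18.2 CPM of Dbp. Lamb2, a basement membrane laminin, had a log2 fold change of 1.01 ± 0.29, which turned to -0.13 with wells assigned by sample titles, and Control mouse 1 averaged 968 CPM, above every 19 April mouse. The interaction of treatment with date could not be judged. With Control mouse 1 left out, mouse 3 was the only Control mouse of 17 April, so no result of that fit is given.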

How the data were processed

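Single Nestin:GFP-sorted wells from 8 mice were sequenced after Smart-seq2. The authors deposited read counts, whole numbers for 32679 genes in 768 wells. The tools named in the submitters' processing notes were STAR, featureCounts 1.5.1 of Subread, FastQC and Seurat 2.3.1, on build mm10, with settings not given in the sources used here. The library method keeps no strand, so antisense partners cannot be told apart, and read counts without molecular identifiers are not independent molecules, so that intervals cover counting error only.

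Wells were assigned to mice by the well names in the sample descriptions. No doublet caller was run; wells over 6000 genes and wells with 3 oligodendrocyte markers were left out. CPM were computed per well over all genes, and lengths came from GENCODE M21 exons (30961 genes matched). Counts were summed per mouse with at least 5 endothelial wells, filtered with filterByExpr and a count in at least 10% of wells, and tested with edgeR 4.0.16 (TMM, quasi-likelihood, treatment and sort date, Benjamini-Hochberg, threshold 0.05; R 4.3.3). The edgeR step was tested on simulated data. Exact two-sided permutation tests over mice (70 splits of 4 against 4 and 35 of 3 against 4) served shares and per-mouse measures. The exact binomial intervals came from scipy 1.17.1. Mice are separate animals, so the spread is between mice.

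Alternatives were DESeq2 1.42.0, no low-count filter, no sort date, the well-name prefix as a term, other marker levels, all mice with a well, thinned wells, the title map, wells with pericyte markers left out and each mouse left out; the red blood cell wells left out and the permutations within dates and within pairs of the same date and prefix were chosen after seeing the data. Named genes were the markers, up to 6 genes of each list by level, measured miR-132 targets, and Nes with its 8 most correlated genes. They also included the 15 of smallest p, and those of largest ratio and largest spread within the filters given with these rankings. Other genes of the lists were named after their values were seen. Some listed genes are not reported here. The members and lists were chosen with earlier results of these data known.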

Additional observations from a re-analysis of the deposited data

Results flagged for a closer look

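In 37 groups of 4 mice examined for a mouse far from the rest, 3 stood apart, where chance gives about 1 in 20 groups. Control mouse 1 had a mean Cldn5 of 19488 CPM over its 4 wells, against 12620 to 13710 CPM in the other Control mice. Control mouse 3 had a mean Slc38a5 of 1435 CPM over its 6 wells, against 361 to 531 CPM in the other Control mice. In miR-132 mouse 8, 22 of 23 wells (95.7%) had at least 3 capillary genes, against 100% in each of the other miR-132 mice. Those mice were tied at the upper limit, so any lower value would have been flagged, and the chance rate does not apply. Among the wells left out, all 16 with more than 6000 genes had at least 3 endothelial markers at 50 CPM.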

How the results depend on the processing

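The count of genes called for treatment, 0 by edgeR (122 at an unadjusted p under 0.05), was 33 by DESeq2 and 8 with no filter on low counts. The count for sort date, 0 by edgeR (211 at an unadjusted p under 0.05), was 101 by DESeq2 and 17 with no filter. The cause of these differences was not tested. Both counts were 0 in every other setting run, including each mouse left out (0 to 0). Markers at 20 CPM, markers at 100 CPM and at least 4 of 5 markers gave the same fits as the main setting. These settings are counted among the values of named genes and per-mouse measures given here, which they could not change. The treatment difference in endothelial share was -1.52 points with wells assigned by sample titles, where the maps agree on the mouse of 96 of 768 wells, and lay between 4.88 and 11.2 points with each mouse left out. Named genes gave 966 values for treatment, of which 83 changed sign and 16 passed the threshold only in the alternative, and 846 for sort date, of which 43 changed sign and 26 passed. Of 91 values of the 7 per-mouse measures, 3 changed sign. Of all these sign changes, 56 came from the title map. Replicate numbers are not shared between treatments. Sort date and well-name prefix pair 1 Control with 1 miR-132 mouse; the fit with both as terms called 0 genes, and the paired test of the share is in the report. With 1955858 to 14629991 counts per mouse and 4 to 23 wells, genes present in few wells were tested on little data.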

Other observations

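Further gene groups of the endothelial wells are given here as levels, without a test. Among transcription factors, Epas1, a hypoxia-inducible factor, was at 50 CPM in 105 of 107 wells (1876 ± 662 CPM, mean ± SD over 8 mice) and in 163 other wells. Sox7 was in 55 wells and in 4 others, and Lmo2, part of a blood and vessel complex, in 41 and in 4 others. Foxq1, a forkhead factor, was in 38 wells at 102 ± 62.9 CPM, while Foxf2, known from both endothelium and pericytes, was in 39 wells at 195 ± 153 CPM and averaged 121 CPM in mural wells.

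Genes for vessel tone and clotting were shared with mural wells in part. Ece1, which activates endothelins, stood at 613 ± 233 CPM in endothelial and 640 CPM in mural wells, and Plat, the tissue plasminogen activator, at 671 ± 364 and 1180 CPM. Thbd, which restrains clotting, was in 45 endothelial wells, and Vwf, a carrier of clotting factor, in 25 with 1 other kept well at 50 CPM. B2m averaged 1974 ± 463 CPM in endothelial, 433 in mural and 226 in astroglial wells, and H2-D1, an MHC class I heavy chain, 1961 ± 817, 378 and 93.6 CPM. Ifitm3, an interferon-induced membrane protein, ranged from 51.6 to 2415 CPM between mice.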
